A study of Rattus norvegicus with 18 samples.

Results

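The genes described here make the killing machinery of cytotoxic lymphocytes: the pore-forming protein perforin (Prf1), granzymes B, A and K (Gzmb, Gzma, Gzmk), the granule membrane protein Nkg7, the activating receptor Ncr1 and the transcription factor Eomes. The 7 genes were chosen by name, and every array probe carrying one of those names was used, which gave 9 probes of the 41012 on the array. Names matched for 6 genes, and 3 probes carry the name Gzmb. Eomes was matched through its gene ID only, because the file names its probe LOC316052 and describes it as a protein fragment of another locus number, so the values given for Eomes rest on that ID. All 9 probes passed the filter on dim probes, which kept 25207.

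RNA came from PBMC (peripheral blood mononuclear cells), the fraction of lymphocytes and monocytes that a Ficoll gradient yields from blood, of adult male Wistar rats, an outbred laboratory strain. The high-protein diet (HPD) drew 45% of its energy from protein, mainly casein, 10% from fat and 45% from carbohydrate. In the high-fat diet (HFD) fat supplied 60%, protein 20% and carbohydrate 20%. In the control low-fat diet (LFD) these shares were 10%, 20% and 70%. Each diet had 6 rats, 2 months old at the start and fed for 4 months, with HPD and HFD portions matched in energy to what the LFD rats had eaten, and all rats were fasted for 14 h before blood was drawn. One array is titled HFD replicate 7 while its source name gives HPD, and it was counted as HPD replicate 7. On each array the RNA of 1 rat, in Cy5, was set against an equimolar pool of the samples, in Cy3, so every value below is a log2 ratio of a rat to that pool, with 0 at the pool's level.

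Natural killer cells and cytotoxic CD8 T cells store perforin and granzymes in granules and release them onto a target cell, where perforin opens the membrane and granzymes, a family of serine proteases, cut proteins inside. Ncr1 (NKp46) is a surface receptor found mainly on natural killer cells, and Nkg7 takes part in granule release. Eomes and its relative T-bet (Tbx21) are T-box factors that, with Runx and other factors, drive this programme, mostly as studied in mice.

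The upstream sequences of the 4 granule effectors are shown because these genes moved together between rats, as described below. They are the 250 bases before the annotated start in RefSeq (build GRCr8), for Prf1 at chr20:29788790-29789039 on the plus strand and, on the minus strand, for Gzmb at chr15:34462470-34462719, Gzma at chr2:46485697-46485946 and Gzmk at chr2:46582016-46582265. Capitals mark matches on either strand to the Runx motif TGTGGT (reverse ACCACA), the T-box motif AGGTGT (reverse ACACCT) and the ETS motif GGAAGT (reverse ACTTCC).
Prf1: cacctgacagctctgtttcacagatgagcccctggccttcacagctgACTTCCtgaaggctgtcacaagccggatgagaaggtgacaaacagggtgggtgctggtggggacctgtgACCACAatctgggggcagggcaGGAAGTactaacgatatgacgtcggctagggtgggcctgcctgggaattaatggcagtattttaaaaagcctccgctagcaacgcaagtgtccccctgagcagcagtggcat
Gzmb: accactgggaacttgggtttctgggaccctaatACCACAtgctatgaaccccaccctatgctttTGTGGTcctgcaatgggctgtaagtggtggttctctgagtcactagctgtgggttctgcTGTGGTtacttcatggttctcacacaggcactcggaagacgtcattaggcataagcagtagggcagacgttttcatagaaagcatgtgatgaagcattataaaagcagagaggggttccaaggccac
Gzma: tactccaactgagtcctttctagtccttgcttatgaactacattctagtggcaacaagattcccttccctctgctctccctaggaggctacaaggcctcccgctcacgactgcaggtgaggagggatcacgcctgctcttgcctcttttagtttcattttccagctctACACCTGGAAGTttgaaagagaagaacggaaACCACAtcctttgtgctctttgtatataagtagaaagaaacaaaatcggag
Gzmk: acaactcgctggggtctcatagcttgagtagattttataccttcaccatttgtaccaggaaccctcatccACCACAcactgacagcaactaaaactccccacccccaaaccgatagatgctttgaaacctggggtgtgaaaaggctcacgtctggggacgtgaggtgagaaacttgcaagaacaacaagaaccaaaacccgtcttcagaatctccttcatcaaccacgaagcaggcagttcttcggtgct

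The 3 motifs were picked after these sequences had been read, so the matches describe the letters and test nothing. The Runx motif was present in the upstream sequence of 6 of 6 members with an entry, Nkg7 and Eomes included, and in 14.5% of 33469 upstream sequences of the same length. The ETS motif was present in Prf1 and Gzma, 2 of 6, against 19.2% of all upstream sequences, and the T-box motif in Gzma alone, 1 of 6, against 11.6%. In Gzma the T-box and ETS matches lie side by side without overlap. Ncr1 had no entry among the upstream sequences, so it could not be searched.

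Between 53.1 and 63.4% of probes per array were well above background in Cy5, and the median Cy5 signal was 61.5 to 84.3 intensity units over median local backgrounds of 31 to 37. The arrays lay on 5 slides, and slide 1 held HFD replicates 1 and 2 and LFD replicates 1 and 2. With diet in the model, 89 of 25207 probes (0.353%) differed between slides at an adjusted p under 0.05 (limma F test), none of the 9 described here among them. At an unadjusted p under 0.05, 5857 probes (23.2%) did. LFD replicates 6 and 2 had the widest log2 ratios, with median absolute deviations of 0.618 and 0.580 against 0.338 for the median array, and their ratios correlated at r = -0.60 over 19459 probes. Since the labels fix the dye of the rats, the direction of all ratios was kept. Precision is limited throughout by how few arrays each diet has.

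Perforin, the protein that opens the target membrane, was measured by a probe at chr20:28663319-28663378 (rn4, as are all probe positions here), well above background on all 18 arrays. Its log2 ratio was lowest at -0.70, with a median of -0.38 and a highest value of 0.20, in HPD rats, and the same 3 values were -0.26, 0.07 and 0.10 in HFD rats and -0.65, 0.03 and 0.70 in LFD rats. The HFD rats lay close together apart from replicate 4, while LFD replicates 1 and 2 were the highest of all rats and LFD replicate 3 was nearly as low as the lowest HPD rat. The 3 diets overlapped. Prf1 was 0.33 lower in HPD than in LFD rats (log2 difference -0.33 ± 0.22, SE, adjusted p = 1.00) and 0.31 lower than in HFD rats (-0.31 ± 0.22, adjusted p = 0.995), and neither difference passed the limma test. HFD and LFD rats differed by -0.02 ± 0.22.

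Granzyme A, a tryptase, and granzyme K, its close relative, lie near each other on chromosome 2, with probes at chr2:44490165-44490224 and chr2:44589378-44589437, 99.2 kb apart. Gzma ranged from -0.73 to 0.28 with a median of -0.38 in HPD rats, from -0.33 to 0.46 with a median of 0.09 in HFD rats and from -0.86 to 0.88 with a median of -0.35 in LFD rats. Only 1 of 6 HPD rats, replicate 3, was above the pool, against 4 of 6 HFD rats and 2 of 6 LFD rats (replicates 1 and 2). Gzmk showed the same arrangement, with -0.71, -0.39 and 0.32 as lowest, median and highest in HPD rats, -0.19, 0.16 and 0.28 in HFD rats and -0.83, -0.16 and 0.86 in LFD rats. The highest HPD rat was again replicate 3, the lowest LFD rat was replicate 5 for both genes, and the diets overlapped. The HPD minus HFD difference was -0.38 ± 0.28 for Gzma and -0.43 ± 0.25 for Gzmk (SE), with 5 of 6 HPD rats below the HFD mean for each, and neither passed (limma, adjusted p = 0.995 for both).

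Granzyme B, which cuts after aspartate and activates caspases, was measured by a probe at chr15:35195458-35195517. Its lowest, median and highest log2 ratios were -0.32, -0.04 and 0.66 in HPD rats, -0.29, 0.20 and 0.46 in HFD rats and -0.78, 0.11 and 1.14 in LFD rats. HPD replicate 3 stood above the other HPD rats and LFD replicate 1 above every other rat, and the diets overlapped. Gzmb differed by -0.10 ± 0.26 between HPD and LFD rats, by 0.05 ± 0.26 between HFD and LFD rats and by -0.15 ± 0.26 between HPD and HFD rats (SE). These differences are smaller than the spread within LFD rats, an SD of 0.68.

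The other 2 probes named Gzmb are described in the files as granzyme-like proteins I and III, members of the rat granzyme cluster on chromosome 15 whose probes lie 132.6 kb and 294.8 kb from that of granzyme B. Cross-hybridisation between these related genes was not tested. Granzyme-like protein I ranged from -0.50 to 0.93 in HPD rats, from -0.17 to 0.51 in HFD rats and from -0.80 to 0.99 in LFD rats, with HPD replicate 3 and LFD replicates 1 and 2 at the top, as for Gzmk. Granzyme-like protein III ran the other way between HPD and HFD rats, with -0.16, 0.11 and 0.37 as lowest, median and highest in HPD rats, against -0.80, -0.40 and 0.06 in HFD rats. All 6 HPD rats were above the HFD mean, although the ranges overlapped. In LFD rats it spread from -1.83 in replicate 5 to 1.08 in replicate 1. The HPD minus HFD difference was 0.50 ± 0.33 (SE). That SE rests on a spread shared by the 3 diets, whose SDs were 0.19 in HPD, 0.32 in HFD and 1.00 in LFD rats. An exact permutation test of the HPD and HFD rats alone gave a two-sided p of 0.0130, the lowest of 27 such tests. After Benjamini-Hochberg adjustment over them it was 0.351, so the difference was not called.

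Nkg7, the granule membrane protein, was measured at chr1:93813978-93814037 and varied least, by 1.86-fold between its lowest and highest rat. Its lowest, median and highest log2 ratios were -0.39, -0.08 and 0.31 in HPD rats, -0.12, 0.16 and 0.28 in HFD rats and -0.44, 0.06 and 0.46 in LFD rats. The diets overlapped, and the HPD minus HFD difference was -0.20 ± 0.16 (SE).

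Ncr1, the natural killer cell receptor, was measured at chr1:68969603-68969662 and varied most of the 9 probes, by 13.1-fold between rats. Its SD over the 18 arrays, 0.95, was larger than that of 97.2% of the probes kept. In HPD rats the lowest, median and highest log2 ratios were -2.04, -0.57 and 0.60, in HFD rats -0.30, 0.16 and 0.67 and in LFD rats -2.33, -0.42 and 1.38. The lowest 2 rats, LFD replicate 6 and HPD replicate 1, stood below all others, both still well above background with Cy5 signals of 281 and 252 units. HPD replicate 3 and LFD replicates 1 and 2 were above the pool here too. The differences were -0.77 ± 0.51 for HPD minus HFD rats, -0.38 ± 0.51 for HPD minus LFD rats and 0.39 ± 0.51 for HFD minus LFD rats (SE), and none passed.

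Eomes, the T-box factor of natural killer and memory CD8 T cells, had a dim probe at chr8:123380030-123380646, with Cy5 signals of 19.2 to 125 units. It was well above background on 16 of 18 arrays and not on HPD replicate 4 or LFD replicate 6, whose values are therefore less certain. Its lowest, median and highest log2 ratios were -1.03, -0.48 and 0.54 in HPD rats, -0.44, -0.04 and 0.88 in HFD rats and -1.78, -0.12 and 0.86 in LFD rats. The only HPD rat above the pool was replicate 3, and the diets overlapped. In LFD replicate 6, which had the lowest Eomes and Ncr1, Nkg7 was above the pool at 0.43. The HPD minus HFD difference was -0.49 ± 0.37 and the HFD minus LFD difference 0.36 ± 0.37 (SE), and neither passed.

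**Figure D1:**
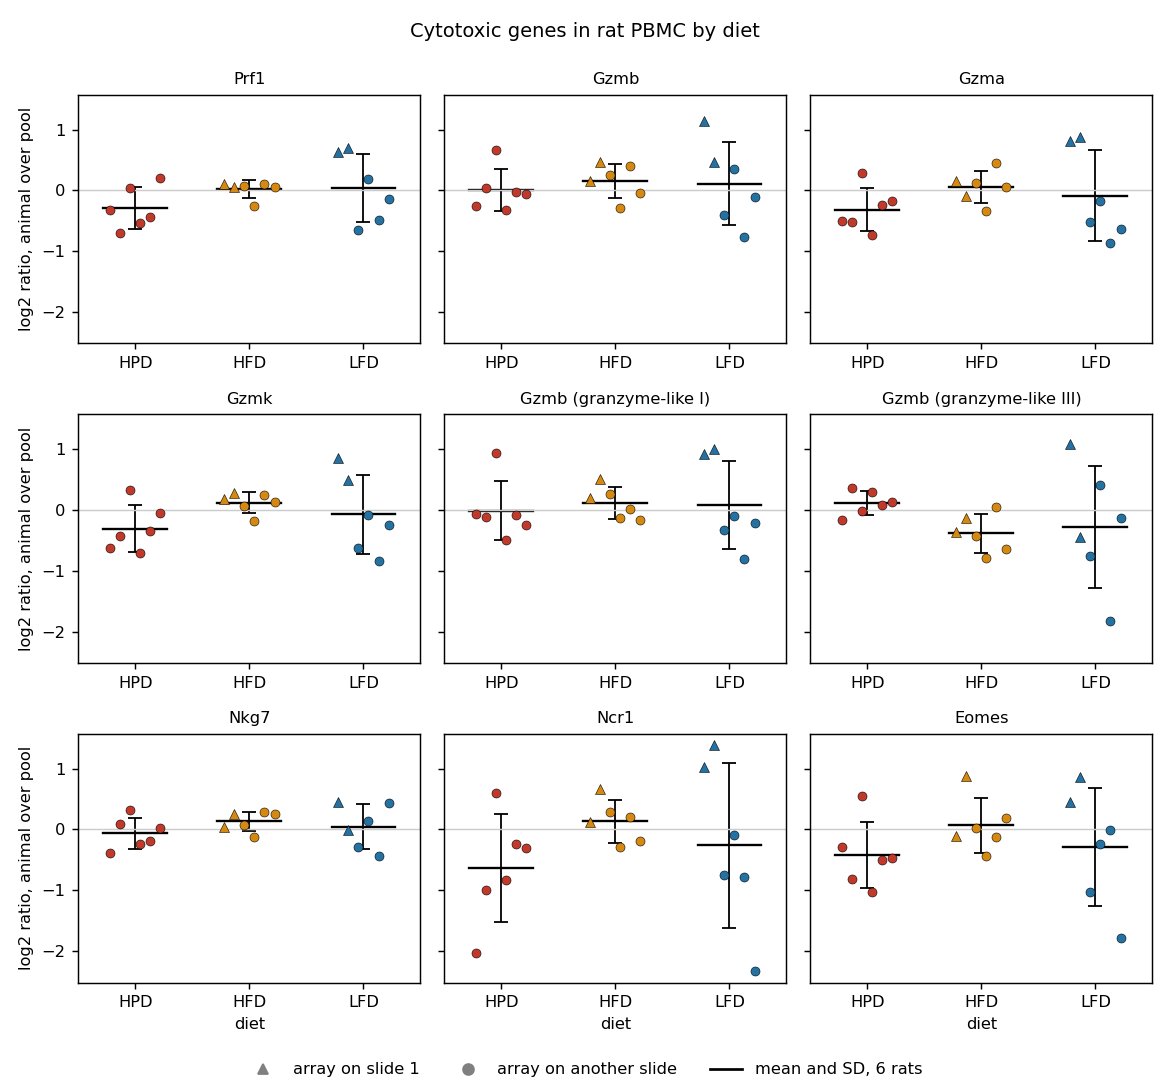
Log2 ratio of each rat to the pool (y axis) for the 9 probes, by diet (x axis), with 6 rats per diet, the mean as a horizontal line and the SD as a bar, and triangles for arrays on slide 1. The diets overlap in every panel, and the LFD rats spread more widely than the HFD rats, for Ncr1 with an SD of 0.35 in HFD rats and 1.35 in LFD rats.

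Across the 3 comparisons no member gene passed, and neither did any other probe. The number called by limma at a Benjamini-Hochberg adjusted p under 0.05 was 0 of 25207 (0%) for HPD against LFD, for HFD against LFD and for HPD against HFD, and 0 for any diet (F test). At an unadjusted p under 0.05 the probes numbered 716 (2.84%), 506 (2.01%), 761 (3.02%) and 581 (2.30%) in the same order, and none of the 9 probes was among them.

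By sign alone, all 7 genes were lower in HPD than in LFD rats, where 46.1% of all probes were lower, and their median difference was -0.23 against 0.02 over all probes. All 7 were lower in HPD than in HFD rats, where 47.7% of all probes were lower, with a median of -0.38 against 0.01. In HFD against LFD rats 6 of 7 were higher, where 51.5% of all probes were, with a median of 0.15 against 0.01, and Prf1 was the exception. These comparisons share samples in pairs, and the 7 genes move together between rats, so the signs are not 7 separate observations. The lowest exact permutation p (two-sided) of a member gene's own probe was 0.0390 for Gzmk in HPD against HFD rats, 0.432 after adjustment over the 27 tests, and the smallest p this design allows is 0.00216. In these bulk samples fewer cytotoxic cells and less of these RNAs per cell cannot be told apart.

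**Figure D2:**
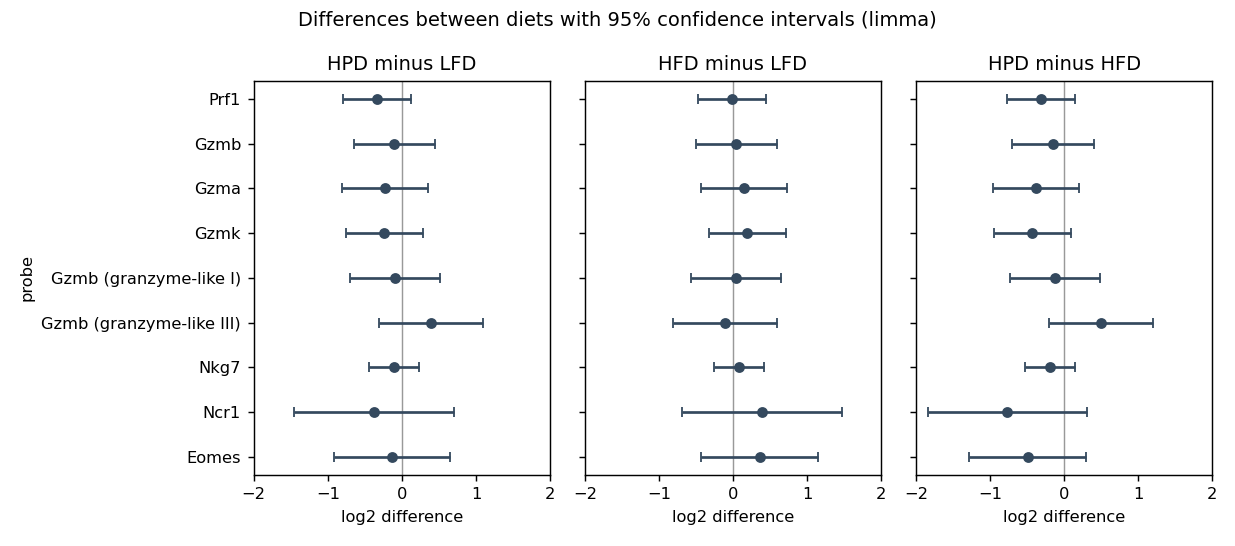
Log2 differences between diet means (x axis) for the 9 probes (y axis), with limma 95% confidence intervals as bars, from 6 rats per diet. Every interval includes 0, and the Ncr1 interval for HPD minus HFD runs from -1.84 to 0.31.

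Some of these signs depended on the arrays of slide 1, where slide and rat cannot be told apart. All 4 of its arrays were above the pool in the mean of the 7 genes, with the HFD rats at 0.09 and 0.36 and the LFD rats at 0.77 and 0.68, and it holds no HPD rat. Within slide 1, with 2 HFD and 2 LFD rats, the HFD rats were lower for all 9 probes. The differences ran from -0.07 for Nkg7 to -0.81 for Ncr1. Within slide 3, with 2 HFD rats and 1 LFD rat, the HFD rats were higher for all 9. On slide 5, with 1 rat of each diet, the HFD rat was higher for 8 of 9. The LFD rat there was replicate 6, the array with the widest log2 ratios. Without slide 1, and so without LFD replicates 1 and 2, the median difference over the 7 genes was 0.24 for HPD against LFD rats in place of -0.23. Gzmb, Gzma, Gzmk, Eomes and Ncr1 were then higher in HPD. That median was 0.28 within slide 3, with 1 rat of each diet, and -0.11 within slide 4, with 2 of each. The median for HPD against HFD rats was -0.34 without slide 1. Within slide 2, with 3 HPD rats and 1 HFD rat, all 7 genes were lower in HPD, and within slide 3, with 1 HPD rat and 2 HFD rats, 5 of 7 were, Gzmb and Ncr1 being at 0.14 and 0.01. At an unadjusted p under 0.05 in the limma F test for slide, 4 of the 9 probes differed between slides, against 23.2% of all probes: granzyme-like protein I, Eomes, Prf1 and Gzmk. None of the 9 passed after adjustment, the lowest adjusted p being 0.123, for granzyme-like protein I.

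The 7 genes varied together from rat to rat. Among their 21 pairs Pearson r was 0.21 to 0.93 with a median of 0.76, and 19 pairs had a Benjamini-Hochberg adjusted permutation p under 0.05, 19 by Spearman rho as well. All ratios of an array share its RNA, labelling and pool, and of all 186524955 pairs of probes well above background on every array, 12.1% had r over 0.5, against 19 of the 21 pairs here. The median r was 0.65 for deviations from the slide means, 0.75 for deviations from the diet means and 0.63 without slide 1, and 15, 19 and 14 pairs passed in these 3 recalculations. In the authors' deposited table of log2 values, made with a normalization not described in the sources, 8 of the 21 pairs passed.

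The 6 pairs among Prf1, Gzmb, Gzma and Gzmk had r of 0.76 to 0.93, and differences between correlations were not tested. Gzma and Gzmk, the neighbours on chromosome 2, correlated at r = 0.93 (rho = 0.94, n = 18, permutation p = 1e-05 for both, the smallest that 100000 permutations can give, adjusted p = 5.25e-05). Without the 2 arrays farthest from the Gzma median r was 0.91. In this paragraph the 2 farthest arrays were chosen by the median of the first gene named alone. Gzmb and Gzmk correlated at r = 0.91 (rho = 0.88, permutation p = 1e-05 for both, adjusted 5.25e-05), with 0.84 without the 2 farthest arrays. Gzmb and Gzma correlated at r = 0.85 (rho = 0.83). Prf1 followed Gzmk at r = 0.89 and Gzma at r = 0.87, and Eomes followed Ncr1 at r = 0.82, with 0.72 without the 2 farthest arrays.

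Nkg7 passed with Prf1 and the 3 granzymes and did not pass with Ncr1 or Eomes. It correlated with Gzmk at r = 0.78 and with Gzmb at r = 0.77, whereas its pairs with Ncr1 (r = 0.35, rho = 0.45, permutation p = 0.156 and 0.0631, adjusted 0.164 and 0.0662) and Eomes (r = 0.21, rho = 0.34, permutation p = 0.396 and 0.172) did not pass. The difference between these correlations was not tested. Granzyme-like protein I followed Gzmb at r = 0.88 (rho = 0.89). Granzyme-like protein III correlated with Gzmb at r = 0.68, which fell to 0.25 without the 2 arrays farthest from the Gzmb median, and with Eomes at r = -0.03.

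**Figure D3:**
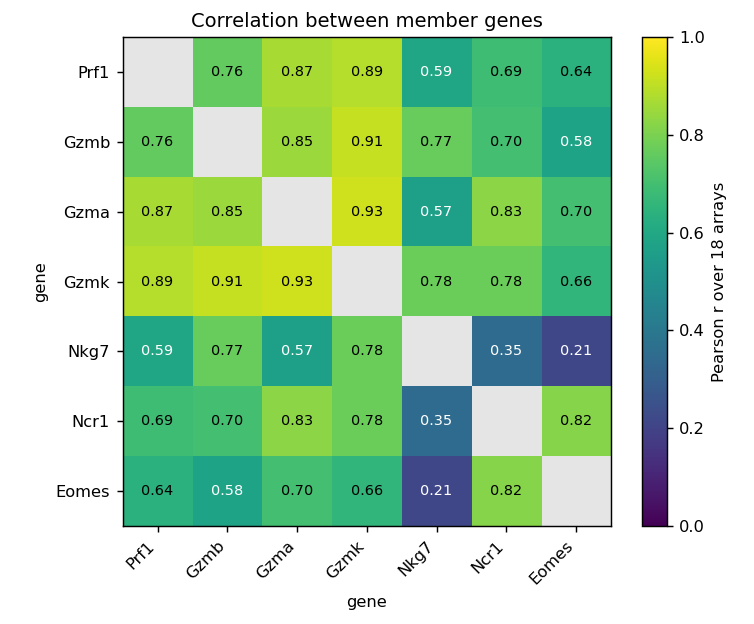
Pearson r over the 18 arrays for each pair of the 7 genes (both axes), with darker cells for lower r. The block of Prf1, Gzmb, Gzma and Gzmk lies between 0.76 and 0.93, and the lowest values are those of Nkg7 with Eomes and Ncr1, 0.21 and 0.35.

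The mean of the 7 genes ranked the rats from LFD replicate 1 at 0.77 and LFD replicate 2 at 0.68 down to LFD replicate 6 at -0.69, so that LFD rats stood at both ends. This mean was not scaled per gene, so Ncr1 and Eomes, with SDs of 0.95 and 0.69, weigh most in it. LFD replicate 6 owes its low mean largely to Ncr1 (-2.33) and Eomes (-1.78, not well above background). Its Prf1, Gzmb, Gzma, Gzmk and Nkg7 were at -0.14, -0.12, -0.64, -0.24 and 0.43. HPD rats lay between -0.63 and 0.39, HFD rats between -0.28 and 0.36 and LFD rats between -0.69 and 0.77. The SD was smaller in HFD than in LFD rats for each of the 9 probes. Over all 25207 probes the median SD was 0.30 in HPD rats, 0.28 in HFD rats and 0.41 in LFD rats, so the LFD rats also spread most over the arrays at large.

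**Figure D4:**
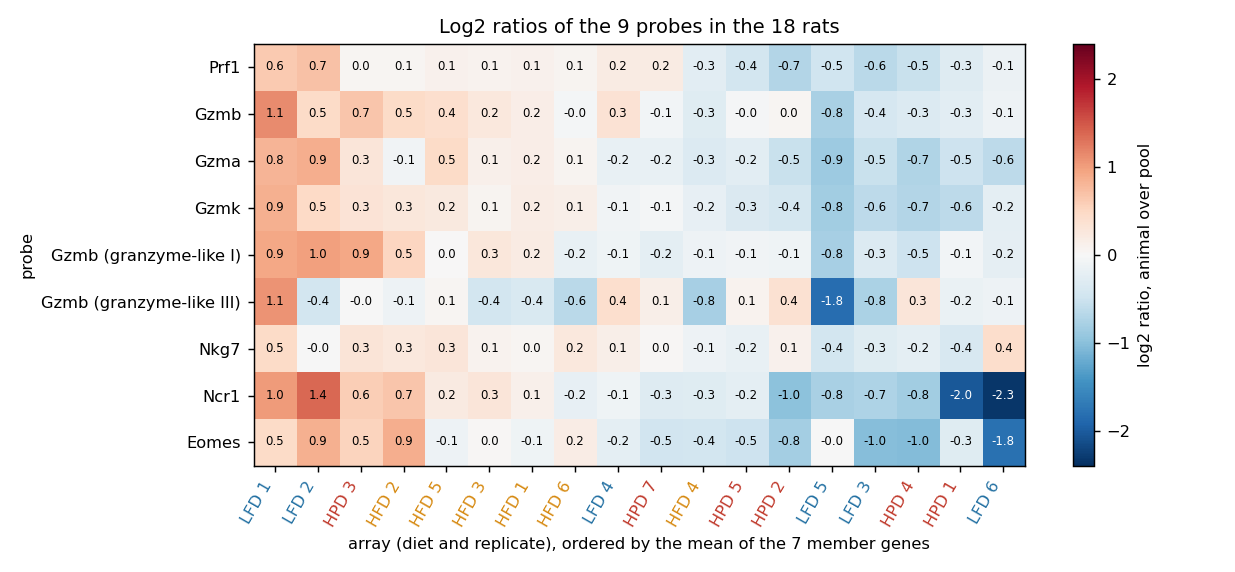
Log2 ratio of each rat to the pool (colour and printed value) for the 9 probes (rows) and 18 arrays (columns, label colour by diet), with arrays ordered by the mean of the 7 genes. LFD replicates 1 and 2 are high and LFD replicates 5 and 3 low across most rows. LFD replicate 6 is lowest for Ncr1 and Eomes, at -2.33 and -1.78. Granzyme-like protein III departs from the order, for example at -0.45 in LFD replicate 2.

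Further genes of the cytotoxic programme were taken from a list of granule proteins, protease inhibitors, receptors, signalling molecules and transcription factors, of which 51 of 63 were measured. Of these 40 were lower in HPD than in LFD rats (median -0.14), 22 were lower in HFD than in LFD rats (median 0.03) and 36 were lower in HPD than in HFD rats (median -0.16), where 45.0%, 49.9% and 45.6% of all genes were lower. All come from the same rats, so the signs are not 51 separate observations. The mean of the programme list was highest in LFD replicates 1 and 2, at 0.36 and 0.31. The other LFD rats lay between -0.35 and 0.06, and the HPD rats between -0.33 and 0.11. The lower values in HPD than in LFD rats therefore lean on those LFD replicates, and the counts were not repeated without them. None of the 51 genes passed in any comparison (limma, 0 of 51 adjusted). At an unadjusted p under 0.05 there were 0, 0 and 4, all 4 lower in HPD than in HFD rats. Of all probes, 3.02% were under that threshold in either direction and 1.24% were lower. The programme list was not alone in this, since 3 of the 10 monocyte markers described below were also lower at that threshold.

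The 4 genes of the programme list were the cytokine interferon gamma (Ifng, -0.82 ± 0.32, SE), the lectin receptor Klrb1b (-0.94 ± 0.40), and the transcription factors Prdm1 (-0.59 ± 0.25) and Zeb2 (-0.64 ± 0.30). Ifng had a lowest, median and highest log2 ratio of -1.41, -0.39 and 0.58 in HPD rats, against -0.02, 0.33 and 0.76 in HFD rats. The HFD rats thus lay at or above the pool and most HPD rats below it, with overlap, and the adjusted p was 0.995 for all 4 genes.

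The partners of granule loading and the inhibitors that protect the killer cell did not pass either. Serglycin (Srgn), the proteoglycan that holds granzymes in the granule, differed by -0.15 ± 0.17 between HPD and HFD rats, and cathepsin C (Ctsc), which activates granzymes, by 0.03 ± 0.12. Cystatin F (Cst7), an inhibitor of that cathepsin, differed by -0.18 ± 0.16 and Serpinb9, an inhibitor of granzyme B, by -0.19 ± 0.48 (SE). Ctsc did not share the pattern of the 7 genes, with r = -0.04 to their mean, while Serpinb9 did, with r = 0.88.

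T-bet (Tbx21), the relative of Eomes, and the interleukin receptor chain Il2rb were -0.46 ± 0.47 and -0.24 ± 0.25 in HPD minus HFD rats. The receptor Klrd1 (CD94) was at -0.16 ± 0.20. The chains of the CD8 co-receptor differed in sign, with Cd8a at -0.04 ± 0.27 and Cd8b at 0.38 ± 0.20 (SE), and neither passed. Cd8b followed the mean of the 7 genes at r = 0.17 and Cd8a at r = 0.68.

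Of 10832 named genes that passed the filter and had a value on all arrays, the 10 most like the mean of the 7 genes over the 18 arrays were Itgad (r = 0.96), Tbx21 (0.95), Klrg1 (0.95), Il2rb (0.94), Lim2 (0.92), Sytl2 (0.92), Rps6ka1 (0.91), Stard3nl (0.91), Gusb (0.90) and Klrb1c (0.90), where the median r over all ranked genes was -0.01. Itgad is an integrin chain of leukocytes, Klrg1 and Klrb1c are lectin-like receptors of natural killer and T cells, and Sytl2 is a protein of granule transport. Lim2, named for a lens membrane protein, is a neighbour of Nkg7 in the RefSeq annotation. Without slide 1 and for deviations from the slide means, r of these 10 genes was 0.80 to 0.94. The 3 genes at the other end were Large2 (r = -0.91), Bok (-0.90) and Prdx6 (-0.88). These values describe the 18 arrays and carry no p, since the genes were picked for them. They refer to the unscaled mean, in which Ncr1 and Eomes weigh most.

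**Figure D5:**
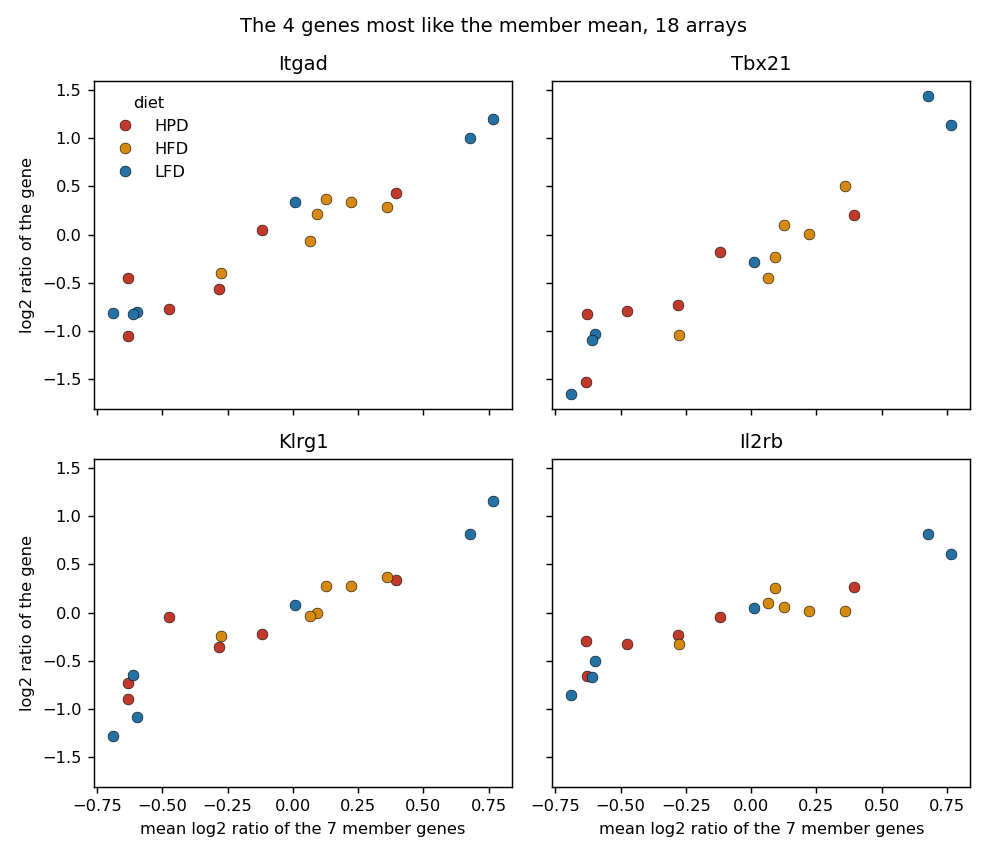
Log2 ratio of Itgad, Tbx21, Klrg1 and Il2rb (y axis) against the mean log2 ratio of the 7 genes (x axis), 1 point per array, coloured by diet. In each panel LFD rats lie at both ends, from a mean of -0.69 to 0.77, with the HPD and HFD rats between.

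Markers of the cells that PBMC hold were set beside these signs. The natural killer cell list, 9 of 10 measured and 4 of them members, was lower in HPD than in HFD rats for 8 of 9, with per-array means of -0.56 to 0.22 in HPD rats, -0.21 to 0.31 in HFD rats and -0.54 to 0.51 in LFD rats. It was also lower in HPD than in LFD rats for 8 of 9 and higher in HFD than in LFD rats for 7 of 9. These counts and means include the 4 members and so partly repeat their signs. Of the genes that are not members, Klrd1, Klrb1a, Klrb1b and Il2rb were lower in HPD than in HFD and LFD rats, and Klrk1 was higher. T cell markers, 12 of 12 measured, were lower in HPD than in HFD rats in 1 of 12, lower in HPD than in LFD rats in 5 of 12 and higher in HFD than in LFD rats in 3 of 12, with means of -0.21 to 0.30 in HPD rats, -0.44 to 0.14 in HFD rats and -0.34 to 0.13 in LFD rats. Monocyte markers were lower in HPD than in HFD rats in 10 of 10, lower in HPD than in LFD rats in 9 of 10 and higher in HFD than in LFD rats in 9 of 10, with means of -1.30 to 0.38 in HPD rats, -0.47 to 0.82 in HFD rats and -0.54 to 0.29 in LFD rats.

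Erythroid and platelet markers were lower in HPD than in HFD rats, and in HPD than in LFD rats, in 9 of 9 each. In HFD rats they were higher than in LFD rats in 5 of 9 erythroid and 0 of 9 platelet markers. Erythroid means were -1.40 to -0.21 in HPD rats, -1.43 to 0.89 in HFD rats and -1.14 to 0.90 in LFD rats, and platelet means were -1.36 to -0.15 in HPD rats, -2.09 to 0.99 in HFD rats and -0.64 to 1.31 in LFD rats. B cell markers were lower in HPD than in HFD rats in 3 of 6, lower in HPD than in LFD rats in 2 of 6 and higher in HFD than in LFD rats in 4 of 6. For neutrophil markers the same 3 counts were 3, 4 and 5 of 6. The 2 CD8 T cell markers were lower in 1 of 2 in HPD against HFD and in HPD against LFD rats, and higher in 0 of 2 in HFD against LFD rats. No marker list had a gene that passed. At an unadjusted p under 0.05 (limma), 3 of 10 monocyte markers and 1 of 9 natural killer markers were lower in HPD than in HFD rats. That natural killer marker was Klrb1b, already counted in the programme list. Over the 18 arrays the median r of a list's genes with the mean of the 7 genes was 0.44 for the natural killer list without its members, 0.44 for erythroid, 0.42 for CD8 T cell, 0.38 for B cell, 0.13 for monocyte, 0.10 for neutrophil, 0.0011 for platelet and -0.14 for T cell markers. The part of any of these cells in the differences between diets was not tested.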

How the data were processed

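Blood mononuclear cell RNA of 18 rats on 3 diets was measured on 2-colour Agilent rat arrays. Per the file headers, the deposited processed signals are intensity values per spot after background subtraction and dye normalization by the scanner software. The submitters' processing notes name it as Agilent Feature Extraction, version 10.5.1.1. Spot flags mark outliers, saturated spots and signal clearly over background, as scores of 0 or 1 per the file headers. A second, deposited table holds log2 values for part of the spots (20256 probes), and its normalization is not described in the sources. Once matched by spot number and centred per probe, it correlated at 0.886 with the ratios analysed here, which fixes its direction. All of its columns share a median of 8.40, its centring is unknown, and it was used as an alternative.

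The value of a spot was log2 of processed Cy5 over processed Cy3. Outlier spots were set to missing, repeated spots were averaged, and a probe was kept if its Cy5 signal was well above background in 5 or more of the 18 rats. For Gzmb the brightest probe stood for the gene. Diet means were fitted by limma 3.58.1 (R 4.3.3) over all 18 arrays, with 3 contrasts and an F test, Benjamini-Hochberg adjustment over 25207 probes and a threshold of 0.05. The adjusted p-values quoted with log2 differences come from that fit, and ± gives its SE. Single members were also tested by two-sided exact permutation over 924 splits. Correlations used 100000 permutations. The fit was also run on simulated data with independent arrays and the same spread in each diet. Those data lack the likeness between arrays and the unequal spreads seen here, so they do not test the fit under these conditions.

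The members, lists and settings were chosen with earlier results of these data known. Processed signals were used because a normexp background model fitted to all spots was known to compress the ratios of several arrays, and both normexp versions are alternatives. The genes named are all members, 9 partners fixed by name, genes of the programme list with an unadjusted p under 0.05 (at most 5 per comparison), and the 10 most and 3 least like the member mean. Symbols and upstream sequences come from RefSeq tables of GRCr8, and probe positions from the array design on rn4, where the position within a gene was not analysed here. Each sample is a different rat per the labels. The log2 ratios of HFD replicates 1 and 6 nevertheless correlated at r = 0.74 over 19459 probes. Those of HFD replicate 2 and HPD replicate 3 correlated at 0.67. Such arrays may not be equally independent, and the reason for their likeness was not tested. Averaging HFD replicates 1 and 6 was among the alternatives.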

Additional observations from a re-analysis of the deposited data

Results flagged for a closer look

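Of 66 sets of 6 rats examined (each of the 9 probes and 13 partner genes in each diet), 5 held a rat far from the others by Dixon's criterion of 0.625, and chance alone marks about 1 set in 20. HPD replicate 3 stood above the other HPD rats for Gzmb, at 0.66 against 0.04 for the next rat, for granzyme-like protein I, at 0.93 against -0.07, and for Serpinb9, at 0.91 against -0.16. HFD replicate 4 was low for Prf1, at -0.26 against 0.05 for the next HFD rat. LFD replicate 2 was high for Srgn, at 0.56 against -0.08 for the next LFD rat. Without HPD replicate 3 the HPD minus HFD difference of Gzmb was -0.28, and it was -0.15 with that rat.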

How the results depend on the processing

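The number of probes called stayed at 0 in all 3 comparisons and the F test under each alternative, with 2 exceptions for HPD against LFD rats, where array quality weights called 2 probes and leaving out each array in turn called 0 to 1 (1 without LFD replicate 2). No member gene was called under any alternative. Replicate numbers were not treated as pairs in the main fit. Of 16 same-numbered pairs 7 had deviations correlating over 0.1, with a range of -0.42 to 0.31. Differently numbered pairs were not compared, so these values cannot show whether the numbers mark a pairing. The replicate block called 0 probes in each comparison (medians over the members -0.30 for HPD against LFD, 0.15 for HFD against LFD and -0.46 for HPD against HFD). Over the alternatives counted, the member genes kept their direction in 109 of 118 values for HPD against LFD rats. The counts were 106 of 118 for HFD against LFD and 117 of 118 for HPD against HFD rats. They include the alternative chosen after seeing the data. They do not include single arrays left out, differences within slides or the other Gzmb probes. Differences within slides reversed some directions in each comparison, and granzyme-like protein III had the opposite sign to Gzmb in all 3.

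HPD against LFD turned positive without slide 1 for Gzmb (0.24), Gzma (0.24), Gzmk (0.14), Eomes (0.34) and Ncr1 (0.36), and the median over the 7 genes moved to 0.24. Slide as a fixed block gave 0.0531 for Gzmb, and array quality weights gave 0.10 for Gzmb, 0.0379 for Gzma and 0.00533 for Gzmk. The median was 0.28 within slide 3, from 1 rat of each diet. For HFD against LFD, Prf1 turned positive with Cy5 alone (0.0340), scaling between arrays (0.0370), without slide 1 (0.27), with the conflicting array as HFD (0.00868), with array weights (0.19) and, chosen after seeing the data, without LFD replicates 2 and 6 (0.10). Eomes turned negative with normexp, fitted without marked spots (-0.00101) or on all spots (-0.0391), Gzmb in the authors' table (-0.0333) and with slide as a fixed block (-0.00492), and Nkg7 in the authors' table (-0.0250) and with Cy5 alone (-0.0272). The median was -0.49 within slide 1, from 2 rats of each diet. For HPD against HFD, slide as a fixed block gave 0.0581 for Gzmb. The granzyme-like protein III probe gave 0.40, -0.11 and 0.50 in place of Gzmb in HPD against LFD, HFD against LFD and HPD against HFD.

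Leaving out each array in turn, the HPD against LFD difference ranged from -0.28 to 0.10 for Gzmb and from -0.43 to 0.10 for Eomes, and that of HFD against LFD from -0.15 to 0.11 for Prf1, -0.13 to 0.25 for Gzmb, -0.00782 to 0.34 for Gzma, -0.0111 to 0.17 for Nkg7 and -0.0246 to 0.72 for Ncr1. The medians ranged from -0.39 (without LFD replicate 5) to -0.05 (without LFD replicate 2) for HPD against LFD, from -0.01 (without LFD replicate 5) to 0.33 (without LFD replicate 1) for HFD against LFD and from -0.50 to -0.30 for HPD against HFD. The correlations passing were 18 to 21 of 21 with an array left out, 14 without slide 1 and 8 in the authors' table, whose values for the 9 probes correlated with the log2 ratios at 0.69 to 1.00. The cause of these changes was not tested. The authors' table lists 20256 probes.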
